A study of Homo sapiens with 4 samples.

Results

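Solute carriers are membrane proteins that move amino acids, sugars, metals, ions, vitamins and metabolites across cell and organelle membranes. The 156 carriers described here are the rows whose symbol joins SLC, a family number, letters and a further number, selected on a mean FPKM (read counts scaled by gene length and library size) of at least 1 over the 4 libraries of the study. They come from 302 rows with such a symbol among 27356 rows in all and belong to 43 families. Of the other rows, 141 lay under the threshold and 5 were those of genes left out by name, a choice that covers SLC2A1, SLC2A3, SLC7A11, SLC16A3, SLC39A14 and SLC40A1. The threshold used the level in all libraries, so a carrier that passed only through the group where it is high had to differ, if only slightly. SLC25A35, with a mean of 0.826 FPKM in M5 and 1.35 in PBS, was not called as changed. Such a pass holds for 10 members with a group mean under 1 FPKM, 4 in M5 (SLC1A3, SLC16A9, SLC25A27 and SLC25A35) and 6 in PBS (SLC6A14, SLC10A6, SLC39A8, SLC46A3, SLC9B2 and SLC26A11).

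HaCaT cells, an immortalised human keratinocyte line, were plated at a density of 50% in medium with 10% fetal bovine serum and kept for 72 h with M5 or with phosphate-buffered saline (PBS), 2 libraries each. M5 holds 5 human cytokines, IL-1α, IL-17, IL-22, TNF-α and Oncostatin M, at 10 μg/L apiece, and is used to give keratinocytes features of psoriasis in culture. Groups follow the titles, which with the protocols and the series text name M5, although the treatment tag of both M5 libraries reads 25 μM of an agent abbreviated DAC. Whether replicates are separate cultures is not in the labels, so p-values measure only how far these libraries differ, which may be technical.

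The SLC7 light subunits pair with the heavy subunit SLC3A2 to exchange large or cationic amino acids at the plasma membrane. The SLC39 family (ZIP) brings zinc into the cytosol and the SLC30 family (ZnT) takes it out, while most of the SLC25 family carries nucleotides, phosphate, metabolites and cofactors across the inner mitochondrial membrane. In skin, zinc supply and the carriers of fatty acids and amino acids are known for their part in barrier formation and in keratinocyte growth.

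The M5 libraries held 18992988 and 19749612 counts and the PBS libraries 15858644 and 16051974. TMM (trimmed mean of M values) factors were 0.946 and 0.952 in M5 and 1.05 in both PBS libraries, and scaled FPKM below are deposited FPKM divided by these factors. The gap between replicates exceeded sampling noise: the median chi-square over genes was 1.75 in M5 and 1.00 in PBS where sampling alone gives 0.455. All 10 keratinocyte markers were expressed, and 9 rose with M5 while KRT5, a basal layer keratin, fell by 0.96 on the log2 scale. Summed markers of other cell types reached at most 6.23 CPM for fibroblasts, 2.67 for melanocytes, 9.26 for leukocytes and 3.94 for endothelium in any library, where 3 counts correspond to between 0.160 and 0.179 CPM. The leukocyte sum, from 3 of 6 markers with a row, was 8.23 and 9.26 CPM in M5 libraries and 3.95 and 2.72 CPM in PBS libraries, nearly all of it CD14 with 145 and 166 counts in M5 libraries and 60 and 41 in PBS libraries. Its part in the results below was not tested. In bulk RNA, fewer cells of a type and less RNA per cell cannot be told apart.

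Promoters are shown for 4 carriers whose levels changed most, SLC6A14, SLC10A6 and SLC39A8 among the rises and SLC1A3 as the largest fall. Each runs from 250 bases before to 50 after the RefSeq start site on GRCh38.p14, 5′ to 3′ on the gene's strand. The regions are chrX:116436356-116436655 on the plus strand for SLC6A14, chr4:86849335-86849634 on the minus strand for SLC10A6, chr4:102345204-102345503 on the minus strand for SLC39A8 and chr5:36596338-36596637 on the plus strand for SLC1A3. Capitals mark matches, on either strand, to TTCNNNGAA (STAT factors), TGATGNAA (C/EBP-ATF response element), TGCACNC or TGCGCNC (cores of the metal response element) or the NF-kB consensus.
SLC6A14: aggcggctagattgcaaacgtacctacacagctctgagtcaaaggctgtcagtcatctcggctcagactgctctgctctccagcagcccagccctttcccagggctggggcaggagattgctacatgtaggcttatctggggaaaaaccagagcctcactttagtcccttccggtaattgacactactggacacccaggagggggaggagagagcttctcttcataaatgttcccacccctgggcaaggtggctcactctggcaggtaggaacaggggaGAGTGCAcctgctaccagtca
SLC10A6: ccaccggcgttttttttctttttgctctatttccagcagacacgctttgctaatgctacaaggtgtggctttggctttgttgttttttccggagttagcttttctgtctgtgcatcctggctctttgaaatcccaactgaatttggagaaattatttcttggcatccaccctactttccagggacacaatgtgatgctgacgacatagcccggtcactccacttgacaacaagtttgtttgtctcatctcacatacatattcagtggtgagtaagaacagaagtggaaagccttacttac
SLC39A8: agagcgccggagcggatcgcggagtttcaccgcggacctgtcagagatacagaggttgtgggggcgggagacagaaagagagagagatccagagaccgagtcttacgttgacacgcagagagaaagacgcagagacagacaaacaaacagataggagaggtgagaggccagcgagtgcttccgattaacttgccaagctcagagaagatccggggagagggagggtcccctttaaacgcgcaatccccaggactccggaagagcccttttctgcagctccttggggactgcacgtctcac
SLC1A3: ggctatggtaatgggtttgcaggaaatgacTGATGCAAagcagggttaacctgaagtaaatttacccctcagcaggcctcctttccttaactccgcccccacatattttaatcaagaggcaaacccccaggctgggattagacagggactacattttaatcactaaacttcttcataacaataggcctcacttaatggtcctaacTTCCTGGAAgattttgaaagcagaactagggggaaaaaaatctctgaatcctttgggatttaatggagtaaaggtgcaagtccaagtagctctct
The SLC6A14 window held a metal response element core, here on the minus strand, that begins at position 29 from the start site. The SLC1A3 window held the C/EBP-ATF letters from position -220 and the STAT letters from position -45, and no searched motif lay in the windows of SLC10A6 and SLC39A8. Among the 130 members with a promoter in the RefSeq table, 7.69% held the STAT letters, 4.62% the C/EBP-ATF letters, 37.7% a metal response element core and 6.92% the NF-kB consensus. Over all 27305 promoters of the table the shares were 7.88%, 3.67%, 29.3% and 5.72% in the same order. A match is a run of letters, not a binding site, and a window without one says only that these letters are not in it.

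With M5, 60 of the 156 carriers rose and 27 fell at an adjusted p under 0.05 (edgeR quasi-likelihood test on counts, two-sided, Benjamini-Hochberg over 10809 tested genes), and 69 were not called. These are 38.5% and 17.3% of the carriers, where 28.8% of all tested genes rose and 27.1% fell. The median log2 fold change of the carriers was 0.13, against -0.01 over all tested genes. Most of the called changes were small, 52 of the 87 being under 1.5-fold. With each library left out in turn 61 of the 87 calls held every time, and the 26 that did not had log2 fold changes of at most 0.54 in size. Of the 156 carriers 12 rose and 4 fell at least 2-fold, where 6.48% of all tested genes rose and 3.14% fell by that much. The rises include the 6 carriers with a PBS mean under 1 FPKM, and the falls include SLC1A3 and SLC25A27 with such a mean in M5. These passed the threshold only through the group where they are high, so part of the count follows from the selection. All tested genes passed the same threshold. With library totals in place of TMM factors the median of all tested genes was -0.16, and 40 carriers rose and 40 fell, beside 20.4% and 41.3% of all genes. Of the 60 rises 40 were kept under that scaling, as were all 27 falls, and none turned round.

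**Figure D1:**
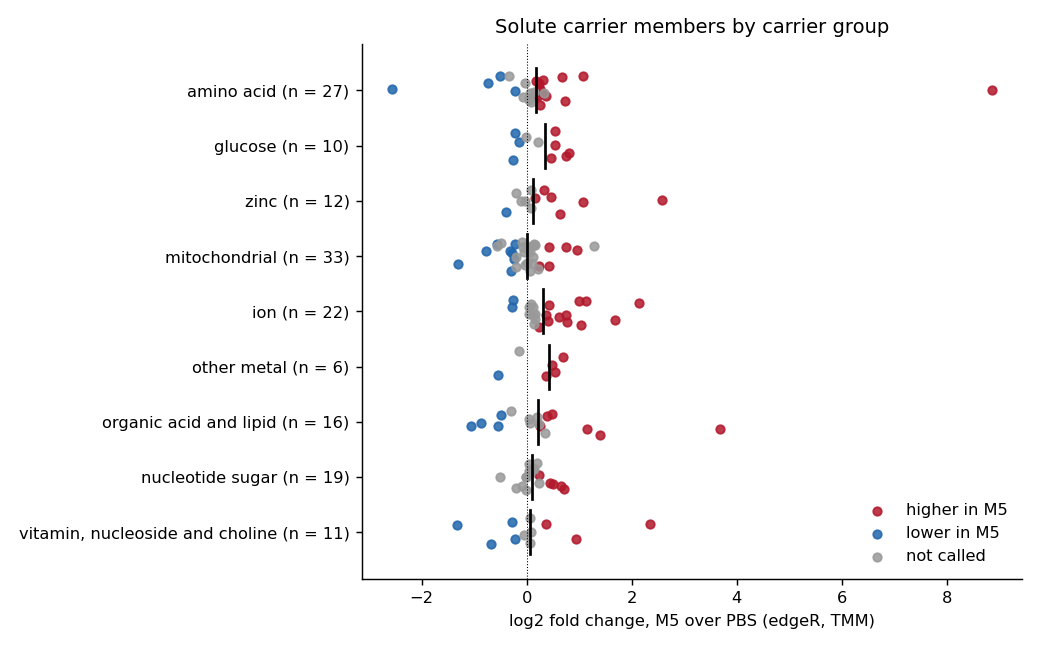
Log2 fold change of M5 over PBS (horizontal axis) for the 156 carriers, 1 point per gene, in 9 carrier groups with the group's median as a black bar; red points were called higher, blue points lower and grey points neither. SLC6A14 stands alone at 8.87, and most points lie within 1 unit of 0 in every group.

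Levels among the carriers were uneven. A mean FPKM of at least 100 was reached by 4 members and one under 10 by 99, with a median of 6.41 where all tested genes had 7.03. SLC7A5 alone made up 26.5% of the summed mean FPKM of all members, and the 5 most abundant made up 47.2%. The summed scaled FPKM of the members was 3353 and 3245 in M5 libraries and 3120 and 3074 in PBS libraries. Just inside the threshold lay SLC25A27 with a mean of 1.01 FPKM, SLC25A35 with 1.09, SLC45A4 with 1.18 and SLC44A3 with 1.20, and just outside it SLC34A3 with 0.929, SLC7A7 with 0.900, SLC15A3 with 0.864 and SLC10A7 with 0.777. In an edgeR fit without the filter 10 (7.09%) of the 141 carriers under the threshold were called higher and 7 (4.96%) lower, beside 2.79% and 3.22% of all 16547 rows under 1 FPKM.

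Among the 27 amino acid carriers 14 rose (51.9%) and 4 fell (14.8%), beside 28.8% and 27.1% of all tested genes. Their median log2 fold change was 0.19. The rises numbered 9 without PBS replicate 1 and 8 without PBS replicate 2. SLC6A14, which takes up neutral and cationic amino acids with sodium and chloride, went furthest of all members (ENSG00000268104, GRCh38, GENCODE 29, chromosome X, 116436622 to 116461458, plus strand). It had 2646 and 2584 counts in M5 libraries, against 9 and 1 in PBS libraries. As scaled FPKM these are 32.5 and 30.3 in M5 libraries and 0.119 and 0.0130 in PBS libraries. Both M5 libraries were high and both PBS libraries near 0. The pooled scaled counts gave a 478-fold higher level in M5, with an exact (Clopper-Pearson) 95% interval of 260 to 998 for counting error only, and edgeR fitted a log2 fold change of 8.87 (adjusted p 2.42e-18). The fitted value was 11.07 without PBS replicate 1 and 8.03 without PBS replicate 2, so its size rests on a handful of PBS reads.

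Next in size among the amino acid rises came 3 carriers known from lysosomes. SLC66A1, which exports cationic amino acids from lysosomes (chromosome 1, 19312326 to 19329300), had 8.51 and 9.57 scaled FPKM in M5 libraries and 4.92 and 3.70 in PBS libraries, with a log2 fold change of 1.07 (SE 0.14, adjusted p 3.30e-06 in edgeR). SLC38A7, a lysosomal glutamine carrier (chromosome 16, 58665109 to 58685104), had 9.34 and 9.37 scaled FPKM in M5 libraries and 5.68 and 5.62 in PBS libraries. The edgeR fit put the log2 fold change at 0.73 (SE 0.08, adjusted p 1.53e-07), and the groups overlapped for neither gene. SLC15A4, which carries histidine and peptides out of lysosomes, rose by 0.67 on the log2 scale (edgeR adjusted p 1.12e-06) and SLC66A2 by 0.37 (edgeR adjusted p 1.77e-04). SLC38A9, a lysosomal arginine sensor, had a log2 fold change of 0.15 and was not called (edgeR adjusted p 0.242).

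The largest fall of any member was that of SLC1A3, a sodium-coupled glutamate and aspartate carrier (ENSG00000079215, chromosome 5, 36606355 to 36688334, plus strand). It had 0.650 and 0.614 scaled FPKM in M5 libraries and 3.56 and 3.89 in PBS libraries, all M5 values well under both PBS values. The edgeR fit put the log2 fold change at -2.56 (SE 0.09, adjusted p 1.76e-14), 5.89-fold lower in M5. The RefSeq start site whose window is printed lies upstream of the GENCODE 29 start of the gene. SLC7A8, a light subunit for neutral amino acids (chromosome 14, 23125295 to 23183674), had 3.00 and 3.08 scaled FPKM in M5 libraries and 5.03 and 5.10 in PBS libraries, and fell by 0.74 on the log2 scale (SE 0.10, edgeR adjusted p 5.75e-06). SLC6A11, which takes up GABA, fell by 0.50 on the log2 scale and SLC38A5, a glutamine carrier, by 0.21, a call lost without PBS replicate 1.

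The most abundant member was SLC7A5, the light subunit for large neutral amino acids (ENSG00000103257, chromosome 16, 87830023 to 87869488). It had 919 and 832 scaled FPKM in M5 libraries and 836 and 809 in PBS libraries, and M5 replicate 2 lay between the PBS values. Its log2 fold change of 0.09 was not called (edgeR adjusted p 0.152), was -0.06 with library totals, and reached 0.16 (adjusted p 7.14e-04) without M5 replicate 2. Its heavy subunit SLC3A2 (chromosome 11, 62856102 to 62888875) had 193 and 183 scaled FPKM in M5 libraries and 186 and 181 in PBS libraries, a log2 fold change of 0.04 that was not called (edgeR adjusted p 0.543) and was -0.11 with library totals. The ratio of the light to the heavy subunit was 4.75 and 4.54 in M5 libraries and 4.51 and 4.47 in PBS libraries. SLC1A5, the glutamine carrier with 114 and 107 scaled FPKM in M5 libraries and 104 and 106 in PBS libraries, was not called either. The abundant SLC7A1 (arginine and lysine), SLC38A1 and SLC38A2 (neutral amino acids) rose by 0.19, 0.15 and 0.25 on the log2 scale. With library totals those 3 values were 0.03, 0.00 and 0.10 and none was called. The rises of SLC7A6, a light subunit, SLC6A9, a glycine carrier, SLC36A1, SLC38A10, SLC43A3, a purine carrier, and SLC6A8, the creatine carrier, lay between 0.23 and 0.32 on the log2 scale and were likewise not called with library totals. Under that scaling 5 amino acid carriers rose and 6 fell. Each of the 9 rises not called with library totals also lost its call without a PBS library: SLC38A2, SLC7A6 and SLC43A3 without replicate 1, SLC7A1, SLC6A9, SLC38A10 and SLC6A8 without replicate 2, and SLC38A1 and SLC36A1 without either. The calls for SLC7A6 and SLC36A1 were also lost without M5 replicate 1, and SLC1A5 was called without M5 replicate 2. SLC7A6 shares 44.4% of its exon bases with SLC7A6OS on the other strand, and without strand their reads cannot be told apart. The mean count was 172.5 for SLC7A6OS and 716.75 for SLC7A6.

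Genes that sense amino acids at the lysosome were called at about the rate of all tested genes. Of 14 tested members of that list 4 rose and 4 fell (28.6% each, beside 28.8% and 27.1% of all tested genes), with a median log2 fold change of -0.01, and with library totals 2 rose and 5 fell. RRAGC, a Rag GTPase that recruits mTORC1, rose by 1.00 on the log2 scale (edgeR adjusted p 1.35e-06), and its regulators FLCN and FNIP1 rose by 0.61 and 0.31. SESN3, a sestrin, fell by 0.97, LAMTOR4 of the Ragulator complex by 0.54 and NPRL2 of the GATOR1 complex by 0.49. LAMTOR1, also of Ragulator, rose by 0.26 (edgeR adjusted p 0.00115), a call absent with library totals. LAMTOR2, LAMTOR3 and LAMTOR5 were not called. The call for FNIP1 was absent with library totals and without PBS replicate 2, and that for NPRL2 without M5 or PBS replicate 2.

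**Figure D2:**
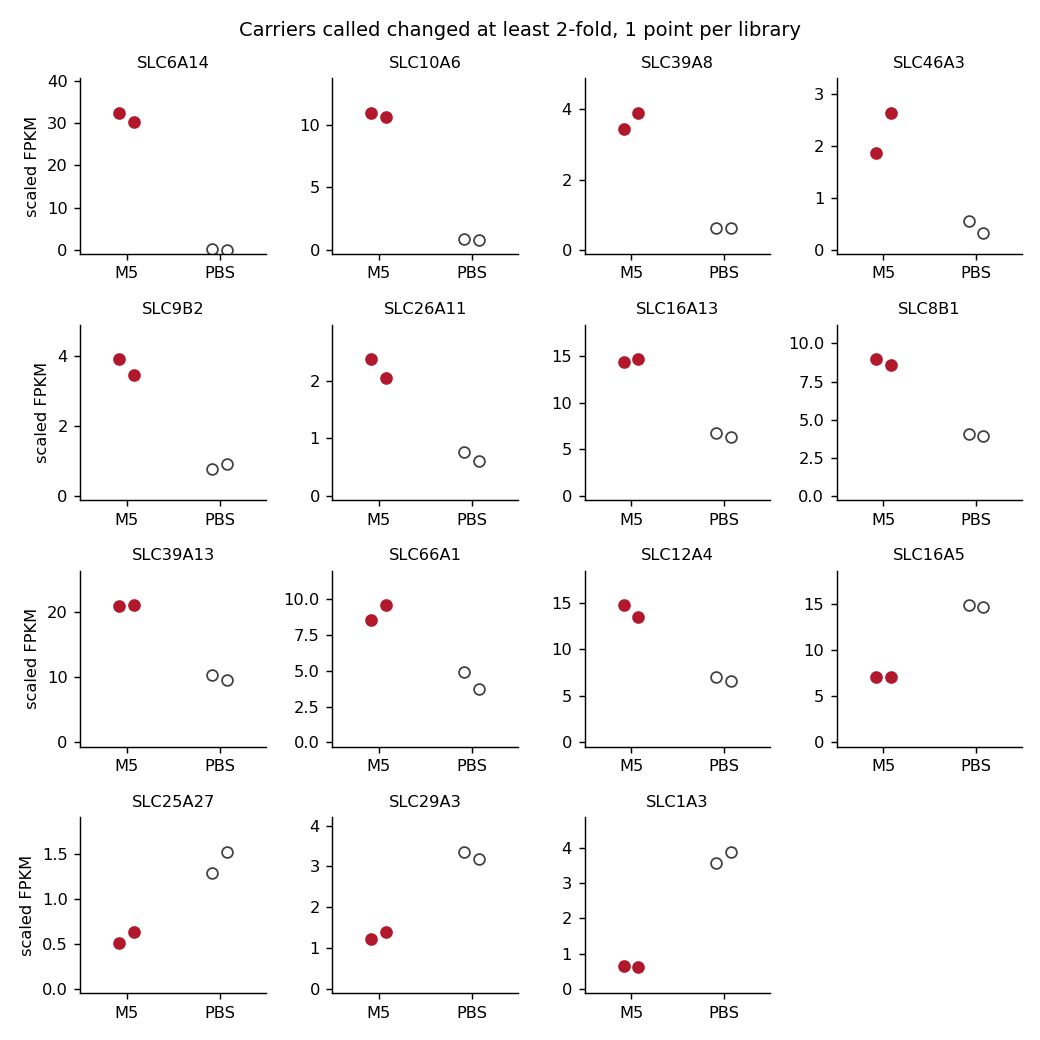
Scaled FPKM (vertical axis from 0, its own range in each panel) of 15 of the 16 carriers called changed at least 2-fold, with 1 filled red point per M5 library on the left and 1 open point per PBS library on the right. The panels run from SLC6A14 with the largest rise to SLC1A3 with the largest fall. They were chosen for a called change of at least 2-fold, so the separate M5 and PBS points are no further result.

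Of the 10 carriers in the glucose families (SLC2, SLC5, SLC37, SLC45 and SLC50) 5 rose and 3 fell, with a median log2 fold change of 0.34. Over all tested genes 28.8% rose and 27.1% fell, so the share of falls among these 10 was close to that of all genes. The family numbers also bring in carriers of other cargo, such as SLC5A6, which takes up biotin and pantothenate, SLC5A3, which takes up inositol, and SLC2A9, which carries urate. SLC37A1, a glucose 6-phosphate exchanger of the endoplasmic reticulum (chromosome 21, 42496008 to 42581440), had 2.77 and 2.55 scaled FPKM in M5 libraries and 1.44 and 1.58 in PBS libraries. The edgeR fit put the log2 fold change at 0.81 (SE 0.14, adjusted p 7.19e-05). SLC37A3, the lysosomal family member (chromosome 7, 140293693 to 140404433), had 4.83 and 4.53 scaled FPKM in M5 libraries and 2.73 and 2.87 in PBS libraries, and rose by 0.74 on the log2 scale (SE 0.09, edgeR adjusted p 6.68e-07). SLC45A3 and SLC2A9 each rose by 0.54 and SLC45A4 by 0.47 on the log2 scale, the calls for SLC2A9 and SLC45A4 being absent with library totals. The call for SLC2A9 was also lost without M5 or PBS replicate 2, and that for SLC45A4 without M5 or PBS replicate 1. Both SLC37 rises had clearly separate groups, while the falls in these families were small.

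SLC37A2, the most abundant of these carriers and also a glucose 6-phosphate exchanger, had 37.1 and 36.3 scaled FPKM in M5 libraries and 40.4 and 41.2 in PBS libraries. It fell by 0.15 on the log2 scale (edgeR adjusted p 0.0223), SLC5A6 fell by 0.23 (edgeR adjusted p 0.00699) and SLC50A1, a sugar efflux carrier, fell by 0.26 (edgeR adjusted p 0.0216). Each of these 3 calls was lost when a PBS library was left out, SLC37A2 without PBS replicate 1 or 2, SLC5A6 without PBS replicate 1 and SLC50A1 without PBS replicate 2, and that of SLC50A1 also without M5 replicate 2. SLC5A6 shares 7.37% of its exon bases with ATRAID on the other strand, whose counts were 492 and 558 in M5 libraries and 721 and 744 in PBS libraries. The library kit does not mark strand, so reads of the shared bases cannot be told apart.

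Of the 12 zinc carriers 6 rose (50.0%) and 1 fell (8.33%), beside 28.8% and 27.1% of all tested genes. Their median log2 fold change was 0.12. The SLC39 importers, where 4 of 7 rose and 1 fell, summed to 107 and 110 scaled FPKM in M5 libraries and 78.0 and 78.1 in PBS libraries. The SLC30 carriers, where 2 of 5 rose, summed to 41.5 and 42.3 scaled FPKM in M5 libraries and 40.04 and 40.5 in PBS libraries. Under library totals 4 importers rose and 2 fell, and of the SLC30 carriers 2 fell and 3 were not called.

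SLC39A8, known as ZIP8, takes up zinc and other divalent metals and carried the largest change of the zinc carriers (ENSG00000138821, chromosome 4, 102251041 to 102431258, minus strand). It had 3.43 and 3.91 scaled FPKM in M5 libraries and 0.606 and 0.621 in PBS libraries, with both M5 values far above both PBS values. The edgeR fit put the log2 fold change at 2.58 (SE 0.14, adjusted p 9.11e-12), 5.98-fold higher in M5. The RefSeq start site whose window is printed lies inside the GENCODE 29 gene. SLC39A13, a zinc carrier of intracellular membranes (chromosome 11, 47407132 to 47416501), had 20.8 and 20.9 scaled FPKM in M5 libraries and 10.3 and 9.52 in PBS libraries. It rose 2.10-fold, a log2 fold change of 1.07 (SE 0.07, adjusted p 9.30e-11 in edgeR).

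SLC39A6 and SLC39A10, importers of the plasma membrane that can pair with each other, both rose. The more abundant SLC39A6 had 52.2 and 55.2 scaled FPKM in M5 libraries and 38.6 and 39.6 in PBS libraries, a log2 fold change of 0.46 (SE 0.06, adjusted p 1.85e-06 in edgeR), and SLC39A10 rose by 0.64 on the log2 scale (edgeR adjusted p 7.05e-06). SLC39A11 was the 1 zinc carrier that fell, with 2.46 and 2.29 scaled FPKM in M5 libraries and 2.98 and 3.26 in PBS libraries, a log2 fold change of -0.39 (edgeR adjusted p 0.0181). That call was lost without M5 replicate 2, where the adjusted p was 0.0589, and without PBS replicate 2, where it was 0.153. SLC30A1, the exporter of the plasma membrane, rose by 0.15 on the log2 scale (edgeR adjusted p 0.0479) and SLC30A7, which fills the Golgi, by 0.34 (edgeR adjusted p 0.00130). With library totals neither of these 2 was called, and SLC30A1 lost its call whichever library was left out. Without M5 replicate 1 the zinc carriers had 2 falls.

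**Figure D3:**
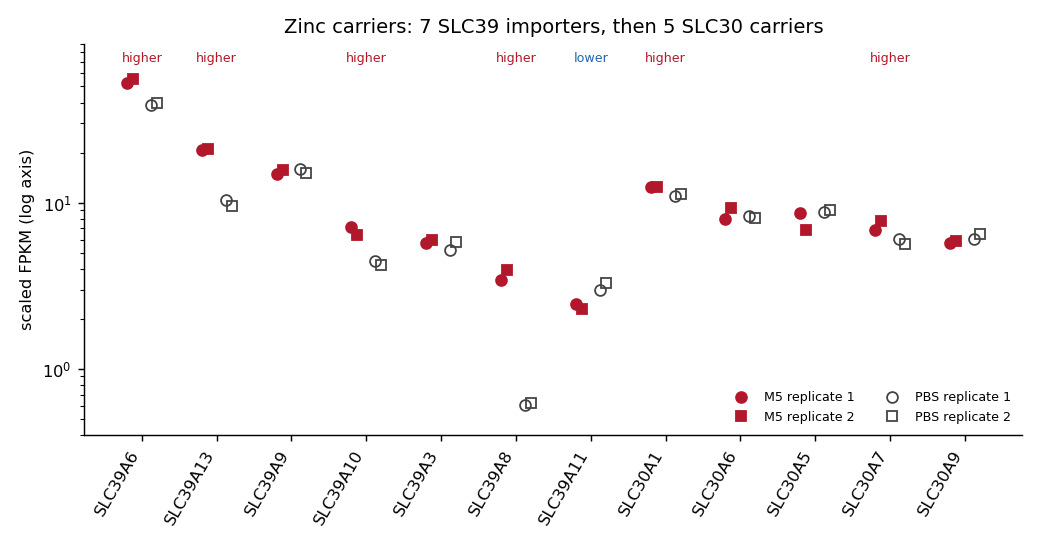
Scaled FPKM (vertical log axis) of the 12 zinc carriers in each library, filled red for M5 and open for PBS, with the 7 SLC39 importers first and the 5 SLC30 carriers after them, each by falling M5 level, and the call written above. SLC39A8 shows the widest gap between M5 and PBS, and SLC39A6 the highest level.

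Metallothioneins, which bind zinc in the cytosol, were measured beside the carriers. Of 5 tested genes of zinc buffering and sensing 4 rose (80.0%, beside 28.8% of all tested genes), and with library totals 3 rose. The rises were those of MT2A, MT1X, MT1E and MTF1, the last not a metallothionein. MTF1 rose by 0.22 on the log2 scale (edgeR adjusted p 0.0421) and was not called with library totals. Its log2 fold change was 0.15 without M5 replicate 1, and 0.18 and 0.26 without PBS replicate 1 and 2. MT1F was not called (edgeR adjusted p 0.180), and the median log2 fold change of the 5 was 0.51. MT2A had 2936 and 2315 scaled FPKM in M5 libraries and 468 and 519 in PBS libraries, a log2 fold change of 2.41 (edgeR adjusted p 1.20e-14). MT1X rose by 0.98 on the log2 scale and MT1E by 0.51. Without PBS replicate 2 the call for MT1X was lost and 2 genes of the list rose. The metallothioneins are near-identical paralogs, so how reads with several alignments were counted can move values between them.

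The 33 mitochondrial carriers had a median log2 fold change of 0.01. Of these 5 rose (15.2%) and 8 fell (24.2%), beside 28.8% and 27.1% of all tested genes. Without M5 replicate 1 the rises numbered 9. Their summed scaled FPKM was 622 and 635 in M5 libraries and 687 and 690 in PBS libraries. The largest called rise was that of SLC25A29, which carries basic amino acids (chromosome 14, 100291111 to 100306547). It had 2.67 and 2.12 scaled FPKM in M5 libraries and 1.29 and 1.152 in PBS libraries, a log2 fold change of 0.97 (SE 0.16, adjusted p 3.42e-05 in edgeR). SLC25A25, a calcium-regulated carrier that exchanges ATP-magnesium for phosphate (chromosome 9, 128068201 to 128109245), had 7.53 and 6.74 scaled FPKM in M5 libraries and 4.16 and 4.31 in PBS libraries. It rose by 0.75 on the log2 scale (edgeR adjusted p 1.82e-06), but shares 13.5% of its exon bases with SLC25A25-AS1 on the other strand, and without strand their reads cannot be told apart. SLC25A28, an iron importer known as mitoferrin 2, rose by 0.43, SLC25A43 by 0.43 and SLC25A39, a glutathione importer, by 0.24 on the log2 scale, the last of these calls being lost without PBS replicate 2.

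The falls among the mitochondrial carriers took in several of the abundant metabolite carriers. SLC25A5, an ADP/ATP exchanger and the most abundant of the family (ENSG00000005022, chromosome X, 119468400 to 119471319), had 235 and 242 scaled FPKM in M5 libraries and 293 and 304 in PBS libraries. It fell by 0.32 on the log2 scale (SE 0.05, edgeR adjusted p 4.23e-05), and its 9 named pseudogenes make its level depend on how shared reads were counted. SLC25A4, another ADP/ATP exchanger, had a log2 fold change of 0.22 and was not called (edgeR adjusted p 0.0727), but was called without M5 replicate 1 and without PBS replicate 2. The ratio of SLC25A5 to SLC25A4 was 34.6 and 30.5 in M5 libraries and 49.2 and 45.5 in PBS libraries, lower in both M5 libraries. SLC25A6, a further ADP/ATP exchanger, had a log2 fold change of -0.49 and was not called (edgeR adjusted p 0.205). Its log2 fold change was -0.91 without M5 replicate 2 and -0.82 without PBS replicate 2. The phosphate carrier SLC25A3, the oxoglutarate carrier SLC25A11, the ornithine carrier SLC25A15 and the glutamate carrier SLC25A22 fell by 0.21, 0.24, 0.28 and 0.30 on the log2 scale, the call for SLC25A11 being lost without PBS replicate 1.

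Larger falls came at lower levels. SLC25A27, a member of the uncoupling protein branch (chromosome 6, 46652915 to 46678193), had 0.508 and 0.632 scaled FPKM in M5 libraries and 1.29 and 1.53 in PBS libraries, a log2 fold change of -1.30 (SE 0.27, adjusted p 4.35e-04 in edgeR). It passed the threshold through its PBS level. SLC25A10, the dicarboxylate carrier (chromosome 17, 81712236 to 81721016), had 3.38 and 2.96 scaled FPKM in M5 libraries and 5.89 and 5.01 in PBS libraries and fell by 0.78 on the log2 scale (edgeR adjusted p 4.68e-04). SLC25A40, a paralog of SLC25A39 in the same branch, fell by 0.57 (edgeR adjusted p 0.00153), and 2.79% of its exon bases lie on those of DBF4 on the other strand, which had more counts.

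SLC25A24, an ATP-magnesium carrier like SLC25A25, gave discordant libraries (chromosome 1, 108134036 to 108200849). It had 15 and 715 counts in M5 libraries and 253 and 16 in PBS libraries, so each group held 1 high and 1 low library. The log2 fold change was 1.28 (edgeR adjusted p 0.204). It was 2.25 and -3.25 without M5 replicate 1 and 2, and 4.36 and 0.37 without PBS replicate 1 and 2, and no direction can be read. Over 3-fold gaps between replicates were found in 126 tested genes (1.17%) and among the members in SLC25A24 and SLC6A14.

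**Figure D4:**
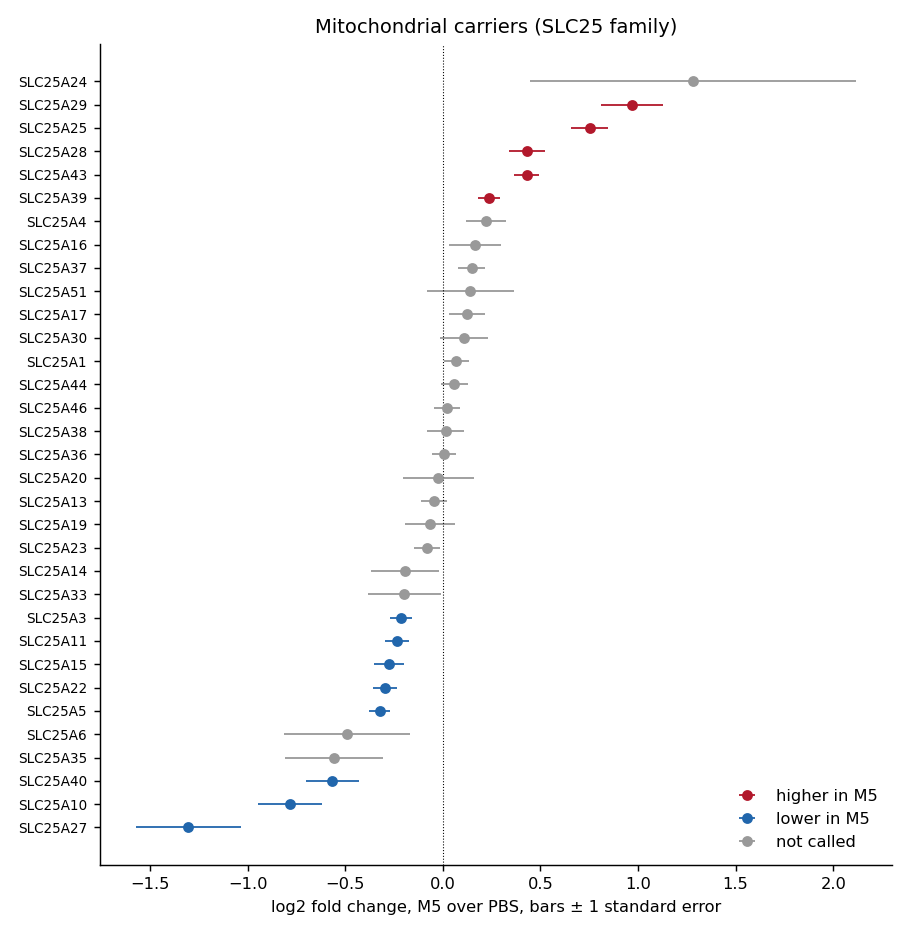
Log2 fold change of M5 over PBS with bars of 1 standard error for the 33 mitochondrial carriers, sorted, red where called higher, blue where called lower and grey where not called. The 5 rises reach 0.97 (SLC25A29) and the 8 falls -1.30 (SLC25A27). SLC25A24, not called, stands above them all at 1.28 with the widest bar, and uncalled carriers such as SLC25A35 at -0.56 lie among the falls.

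The subunits of the mitochondrial pyruvate carrier, which lie outside the SLC symbols, fell, MPC1 by 0.67 on the log2 scale (edgeR adjusted p 0.00177) and MPC2 by 0.72 (edgeR adjusted p 1.53e-04). They belong to a list of 18 tested partner and carrier genes without such a symbol, with a median log2 fold change of 0.23. Of the list 10 rose (55.6%) and 7 fell (38.9%), beside 28.8% and 27.1% of all tested genes. The prostaglandin carrier SLCO2A1 had 4.26 and 3.61 scaled FPKM in M5 libraries and 1.06 in both PBS libraries, a log2 fold change of 1.89 (edgeR adjusted p 7.86e-09). SLCO4A1, an organic anion carrier, rose by 0.98 and MFSD10 by 0.75 on the log2 scale, while the heme exporter FLVCR1 fell by 0.56. BSG, the chaperone of the SLC16 monocarboxylate carriers, rose by 0.34. MTCH2, counted among the 7 falls, had a log2 fold change of -1.72 (edgeR adjusted p 0.0166). It had 142 and 79 counts in M5 libraries and 53 and 617 in PBS libraries, so that fall rests on PBS replicate 2. PBS replicate 1 lay under both M5 libraries, and no direction can be read for MTCH2.

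Of the 22 ion carriers 12 rose (54.5%) and 2 fell (9.09%), beside 28.8% and 27.1% of all tested genes. Their median log2 fold change was 0.30, and under library totals 11 rose and 2 fell. Without PBS replicate 1 the falls numbered 1. Sodium-proton exchangers of the SLC9 family rose in 4 of 5 cases and members of the SLC4 bicarbonate family in 3 of 4. SLC9B2, a sodium-proton antiporter (ENSG00000164038, chromosome 4, 103019868 to 103085829), had 3.92 and 3.47 scaled FPKM in M5 libraries and 0.764 and 0.907 in PBS libraries. The edgeR fit put the log2 fold change at 2.14 (SE 0.13, adjusted p 8.11e-11), with both M5 libraries above both PBS libraries. SLC9A7, an exchanger of the Golgi network, rose by 0.77 on the log2 scale. Of the SLC4 family, SLC4A3 and SLC4A2, which exchange chloride for bicarbonate, rose by 0.62 and 0.43 on the log2 scale, and SLC4A7, a sodium bicarbonate carrier, by 0.41.

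SLC26A11, an anion exchanger (chromosome 17, 80219699 to 80253500), had 2.37 and 2.05 scaled FPKM in M5 libraries and 0.768 and 0.603 in PBS libraries, a log2 fold change of 1.69 (SE 0.21, adjusted p 1.21e-06 in edgeR). SLC8B1, which exchanges sodium for calcium across the inner mitochondrial membrane (chromosome 12, 113298759 to 113359493), had 8.98 and 8.56 scaled FPKM in M5 libraries and 4.10 and 3.93 in PBS libraries. It rose 2.18-fold (log2 fold change 1.13, edgeR adjusted p 1.19e-09). The potassium-chloride cotransporters SLC12A4 and SLC12A7 rose by 1.04 (edgeR adjusted p 1.59e-10) and 0.99 on the log2 scale. The sodium-phosphate carriers split, SLC20A2 rising by 0.36 and the more abundant SLC20A1 falling by 0.28. SLC20A1 had 40.4 and 42.3 scaled FPKM in M5 libraries and 49.6 and 50.7 in PBS libraries.

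Other metal carriers numbered 6, of which 4 rose (66.7%) and 1 fell (16.7%), beside 28.8% and 27.1% of all tested genes. SLC41A1, a magnesium carrier (chromosome 1, 205789093 to 205813748), had 21.9 and 21 scaled FPKM in M5 libraries and 13.5 and 13.1 in PBS libraries, a log2 fold change of 0.69 (SE 0.06, adjusted p 1.35e-08 in edgeR). SLC11A2, the divalent metal carrier that brings iron into cells, rose by 0.54 on the log2 scale (edgeR adjusted p 2.21e-06), SLC41A3, also of the magnesium family, by 0.48 and SLC49A4 by 0.37, the last a call lost without PBS replicate 2. The heme carrier SLC48A1 had 7.35 and 7.13 scaled FPKM in M5 libraries and 11.3 and 9.89 in PBS libraries and fell by 0.55 (edgeR adjusted p 2.71e-05). SLC31A1, the copper importer and the most abundant of the 6, was at 20.05 and 19.4 scaled FPKM in M5 libraries and 21.4 and 22.02 in PBS libraries and was not called (edgeR adjusted p 0.0552), but was called without M5 replicate 1 (adjusted p 0.0232).

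Among the 16 carriers of organic acids and lipids 6 rose (37.5%) and 4 fell (25.0%), beside 28.8% and 27.1% of all tested genes. SLC10A6, a carrier of sulphated steroids (ENSG00000145283, chromosome 4, 86823468 to 86849263, minus strand), had 11.004 and 10.7 scaled FPKM in M5 libraries and 0.884 and 0.802 in PBS libraries. It rose 12.8-fold, a log2 fold change of 3.68 (SE 0.21, adjusted p 1.71e-11 in edgeR), on 321 and 325 counts in M5 libraries and 24 and 22 in PBS libraries. SLC16A13 (chromosome 17, 7036075 to 7040121) had 14.4 and 14.6 scaled FPKM in M5 libraries and 6.70 and 6.32 in PBS libraries and rose 2.23-fold. SLC16A5 (chromosome 17, 75087727 to 75106162) had 7.08 and 7.15 scaled FPKM in M5 libraries and 14.9 and 14.7 in PBS libraries and fell by 1.05 on the log2 scale (edgeR adjusted p 1.10e-08).

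SLC16A9, a carnitine exporter, fell by 0.87 on the log2 scale (edgeR adjusted p 0.00136) and SLC22A5, the carnitine importer of the plasma membrane, by 0.54 (edgeR adjusted p 1.54e-04). The fatty acid carrier SLC27A4, mutated in ichthyosis prematurity syndrome, was the most abundant of these carriers. It had 52.8 and 51.2 scaled FPKM in M5 libraries and 44.6 and 43.01 in PBS libraries and rose by 0.25 on the log2 scale (edgeR adjusted p 0.00125), a call not made with library totals (log2 fold change 0.10). SLC27A2, which activates very long chain fatty acids, fell by 0.48, while SLC22A23 and SLC10A3 rose by 0.49 and 0.39, the call for SLC22A23 being lost without M5 replicate 2 or PBS replicate 1.

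Nucleotide sugar carriers load the Golgi and endoplasmic reticulum for glycosylation. Of the 19 carriers grouped here by family number (SLC33 and SLC35) 5 rose (26.3%) and 0 fell, beside 28.8% and 27.1% of all tested genes, and 14 were not called. The family numbers also bring in carriers of other cargo, such as SLC33A1 and SLC35B2. Under library totals 4 rose and 2 fell. SLC35C1, the GDP-fucose carrier (chromosome 11, 45804072 to 45813015), had 25.5 and 25.0 scaled FPKM in M5 libraries and 16.5 and 15.7 in PBS libraries. The edgeR fit put the log2 fold change at 0.65 (SE 0.06, adjusted p 5.48e-08). SLC35D2, which carries UDP-N-acetylglucosamine, rose by 0.72 (edgeR adjusted p 0.00128) and SLC33A1, the acetyl-CoA carrier of the endoplasmic reticulum, by 0.50 on the log2 scale (edgeR adjusted p 0.00141). SLC35F6 rose by 0.44 and SLC35E1 by 0.23 on the log2 scale, the call for SLC35E1 being lost without PBS replicate 1. SLC35B2, which supplies the sulphate donor PAPS and was the most abundant of the group, had 39.1 and 39.8 scaled FPKM in M5 libraries and 35.8 in both PBS libraries and was not called (edgeR adjusted p 0.0595). It was called without M5 replicate 1 (adjusted p 0.0350), and its log2 fold change of 0.14 was -0.01 with library totals.

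Of the 11 carriers of vitamins, nucleosides and choline 3 rose (27.3%) and 4 fell (36.4%), beside 28.8% and 27.1% of all tested genes. SLC46A3, a lysosomal carrier (chromosome 13, 28700064 to 28718970), had 1.86 and 2.63 scaled FPKM in M5 libraries and 0.554 and 0.329 in PBS libraries, a log2 fold change of 2.34 (SE 0.27, adjusted p 6.81e-07 in edgeR). The riboflavin carrier SLC52A3 rose by 0.93 on the log2 scale (edgeR adjusted p 3.10e-05) and the thiamine carrier SLC19A2 by 0.37 (edgeR adjusted p 0.0111), a call lost without PBS replicate 2. SLC29A3, a nucleoside carrier of lysosomes (chromosome 10, 71319258 to 71381423), had 1.22 and 1.395 scaled FPKM in M5 libraries and 3.36 and 3.18 in PBS libraries. It fell by 1.32 on the log2 scale (edgeR adjusted p 2.93e-07), 2.50-fold lower in M5. SLC29A2, a nucleoside carrier of the plasma membrane, fell by 0.68 (edgeR adjusted p 0.00120), with 10.3% of its exon bases shared with B4GAT1-DT on the other strand. The choline carriers SLC44A1 and SLC44A2 fell by 0.28 and 0.23, the call for SLC44A2 being lost without PBS replicate 1.

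**Figure D5:**
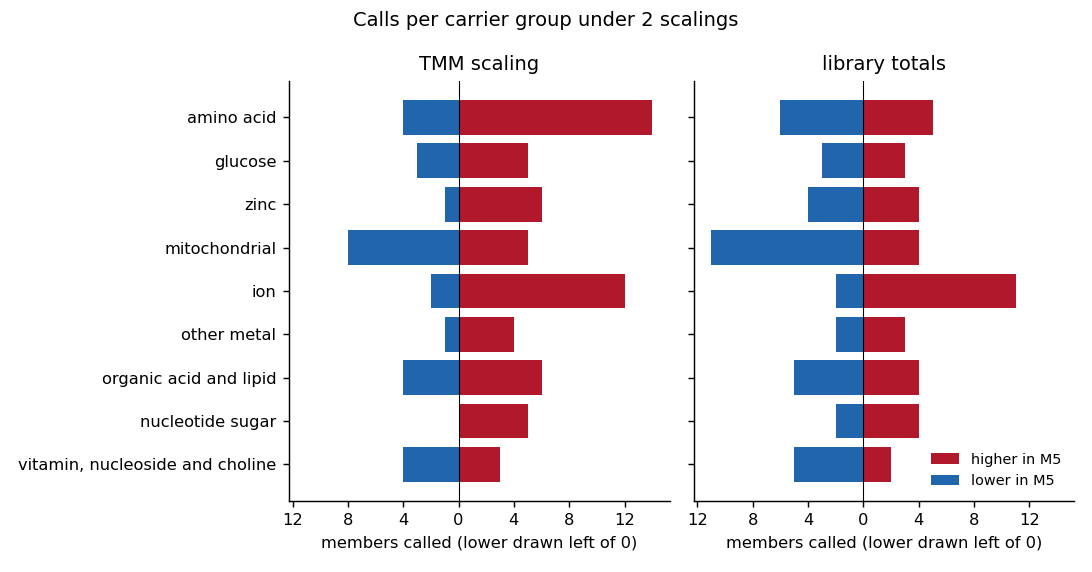
Number of members called higher in M5 (red, right of 0) or lower (blue, left of 0) in each of the 9 carrier groups, with TMM factors in the left panel and library totals in the right panel. Ion carriers keep 11 of 12 rises with library totals, while rises of amino acid carriers number 14 with TMM factors and 5 with library totals.

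Overlap in sequence or position touches part of these values. Exon bases of another counted gene lie on 51 members, most of the exon bases in 2 of them (SLC35A1 and SLC46A1), and 18 members, SLC7A5 and SLC20A1 among them, have a pseudogene of the same symbol. Identifiers of 155 members were found in GENCODE 29.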

How the data were processed

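RNA sequencing of polyadenylated RNA gave 4 libraries, grouped by sample title. Each deposited file holds, per the file headers, read counts and FPKM that the authors made from them for 27356 genes. Per the submitters' processing notes, tools were HISAT2 and HTSeq (0.13.5) and the build was GRCh38, with no roles stated. Annotation release, strand setting and multi-mapping rules: not given in the sources used here. Members, gene lists and tests were chosen with earlier results of these data known.

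Counts of genes averaging 1 FPKM or more were tested with edgeR 4.0.16 in R 4.3.3 (TMM, glmQLFit, glmQLFTest, two-sided, Benjamini-Hochberg over 10809 genes, called at an adjusted p under 0.05). Standard errors are the fold change (log2) over the root of F, which understates it for SLC6A14. The step was tested on simulated data. Carriers were grouped by family number. Named members were the 3 largest called changes in each direction (2 in groups under 15), the most abundant of each group, SLC7A5 with SLC3A2, discordant members, threshold neighbours and up to 3 called genes per direction of other lists; other names were chosen after their values were seen. Some carriers that this rule picks are not reported here. Sequences are RefSeq promoters (GRCh38.p14), matched by symbol. Intervals and the floor of 3 counts cover counting error only. Alternatives were median-of-ratios scaling, library totals, DESeq2 1.42.0, limma 3.58.1 on log2(FPKM + 1) or log2(FPKM + 0.1), dropping the filter, a filter at 5 FPKM, a replicate block, each library left out and an adjusted p of 0.01.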

Additional observations from a re-analysis of the deposited data

How the results depend on the processing

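The count of carriers called higher was 60 and became 37 with limma on log2(FPKM + 1) or log2(FPKM + 0.1) and 39 with a filter at 5 FPKM; that of carriers called lower stayed within 1.5 times of 27 throughout. Amino acid rises (14) became 5 with library totals and 4 with either limma fit, and falls (4) became 1 with that filter. Zinc falls (1) became 4 with library totals, 3 with either limma fit, and 0 with DESeq2, no filter or an adjusted p of 0.01. Glucose rises (5) became 3 with library totals, either limma fit, no filter or an adjusted p of 0.01 and 1 with that filter. Glucose falls (3) became 0 with no filter and 1 at an adjusted p of 0.01. Mitochondrial falls (8) became 5 with that filter. With 1 library left out in turn, amino acid rises ranged from 8 to 16 and falls from 3 to 4, zinc falls from 0 to 2, glucose falls from 1 to 3 and mitochondrial rises from 5 to 9. The direction turned for SLC7A5 (-0.062 with library totals and -0.063 with both limma fits), SLC35B2 (-0.010 with the same 3), SLC3A2 (-0.11 with the same 3) and SLC25A24 (from -3.25 without M5 replicate 2 to 4.36 without PBS replicate 1). The stricter filter tests fewer genes by construction. Both limma fits used FPKM not divided by TMM factors, so they are no check independent of library totals. On the log2 scale the middle tested gene stood at -0.137 with log2(FPKM + 1) and -0.160 with log2(FPKM + 0.1). It stood at -0.164 with library totals and at -0.013 with TMM factors. The cause of the other shifts was not tested. Of 602 values of 48 named members, 560 kept direction and call, 22 lost and 10 gained a call, and 10 reversed. The fit with a replicate block kept 86 of the 87 calls, lost 1 and gained 1; deviations of same-numbered libraries correlated at -0.01, and the labels give the numbers no meaning beyond a name. With 2 libraries per group and counts under about 100, as for SLC25A27 or PBS reads of SLC6A14, the depth limits the precision of a fold change.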

Other observations

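Some carriers under the FPKM threshold differed in edgeR's quasi-likelihood test when it was fitted without a filter. SLC28A3, a concentrative nucleoside carrier, had 107 and 141 counts in M5 libraries and 0 in both PBS libraries, at least 75.6-fold higher against a floor of 3 counts over the PBS group. SLC16A14 had 0 counts in both M5 libraries and 21 and 12 in PBS libraries, at least 12.03-fold lower against a floor of 3 counts over the M5 group. SLC7A7, the light subunit for cationic amino acids, had 21 and 27 counts in M5 libraries and 125 and 144 in PBS libraries, a log2 fold change of -2.58 (adjusted p 1.35e-05). SLC15A3, a lysosomal peptide and histidine carrier, had 165 and 153 counts in M5 libraries and 65 and 56 in PBS libraries, a log2 fold change of 1.29 (adjusted p 6.43e-04). SLC30A4, a zinc carrier, had 102 and 116 counts in M5 libraries and 62 and 48 in PBS libraries (log2 fold change 0.88, adjusted p 0.0149).

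SLC39A8 and SLC9B2 lie 589 kb apart on chromosome 4, counted between the nearest ends of the genes, and the genes between them did not all move alike. NFKB1 rose by 0.46 on the log2 scale (edgeR adjusted p 7.21e-06) and UBE2D3 by 0.23, whereas CISD2, with a log2 fold change of 0.09, was not called (edgeR adjusted p 0.632). SLC9B1, next to SLC9B2, had 0 and 4 counts in M5 libraries and 2 and 0 in PBS libraries.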
